A study of Mus musculus with 2 samples.

Results

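Heat shock proteins and chaperones were followed in the immune cells of the mouse dorsal root ganglion (DRG), the cluster of sensory neuron cell bodies beside the spinal cord. A set of 10 genes was chosen by name: the HSP70 genes Hspa1a, Hspa1b, Hspa8 and Hspa5, the HSP90 genes Hsp90aa1 and Hsp90ab1, the HSP110 gene Hsph1, the co-chaperone Dnajb1 and the mitochondrial chaperonin genes Hspd1 and Hspe1. All 10 were among the 16819 gene symbols of the deposited filtered matrix, and all 10 passed the filter on low counts in each comparison of cell types and of Fos and Jun levels in male mice. Their raw counts of unique molecular identifiers (UMIs, 1 per captured RNA molecule) were compared between cell types and, within macrophages, along the level of Fos and Jun.

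The animals were naive WT BALB/cAnNRj mice, 3 male and 3 female, with no treated or mutant group. No exact age was given, only a lower limit in weeks for all mouse experiments of the study. About 40 DRGs were pooled, digested in Collagenase I, Dispase II and DNAse I at 37 C for 40 min, and sorted for live leukocytes (CD45+ DAPI−). The suspensions carried a hashtag antibody each and shared 1 lane of the 10x 3′ v3 assay, so that a hashtag stands for a mouse and all mice share library preparation and sequencing. The filtered matrix held the cells of the 3 male mice. A further 1073 cells with a female hashtag were taken from the unfiltered matrix and used as separate animals, and no sample without enzymatic digestion was analysed here.

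Heat shock proteins are chaperones, which bind unfolded proteins, help them to fold and keep them from clumping. HSP70 proteins work in cycles of ATP use with J-domain partners such as Dnajb1 and with nucleotide exchange factors such as Hsph1, and hand some clients on to HSP90 or to closed-chamber chaperonins. Some of these genes are kept on in all cells (Hspa8, Hsp90ab1), while Hspa1a and Hspa1b are textbook targets of heat shock factor 1 that are switched on by protein damage, and Hspa5 responds to unfolded proteins in the endoplasmic reticulum (ER). Fos and Jun are immediate early genes, which rise within minutes of many stimuli, cell isolation among them.

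The stretches just before the start sites of 4 members are shown because these members differ in the results below. The paralogs Hspa1a and Hspa1b moved together in macrophages. The Hspe1 stretch has overlapping matches to the heat shock element in 1 longer run, where theirs have 1 short match, and Hspa5 carries another stress element. Each line gives the 250 bases 5′ of the RefSeq start on the gene's own strand (GRCm38.p6), which for Hspa5 and Hspe1 lies inside the GENCODE M21 gene span given below. Capitals mark matches on either strand to a heat shock element of 2 facing units (GAANNTTC or TTCNNGAA), to the ER stress element (CCAAT and CCACG, set 9 bases apart) and to an AP-1 site (TGANTCA), the motif that Fos and Jun dimers bind.
Hspa1a, chr17:34972157-34972406, minus strand: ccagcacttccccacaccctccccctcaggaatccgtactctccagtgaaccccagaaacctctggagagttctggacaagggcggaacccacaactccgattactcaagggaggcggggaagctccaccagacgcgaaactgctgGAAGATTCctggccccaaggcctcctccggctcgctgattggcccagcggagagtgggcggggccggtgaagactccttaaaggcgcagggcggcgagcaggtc
Hspa1b, chr17:34959239-34959488, minus strand: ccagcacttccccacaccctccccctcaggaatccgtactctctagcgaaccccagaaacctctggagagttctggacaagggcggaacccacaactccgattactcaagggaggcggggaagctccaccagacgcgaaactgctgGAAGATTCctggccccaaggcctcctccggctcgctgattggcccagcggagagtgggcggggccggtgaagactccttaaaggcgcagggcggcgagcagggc
Hspa5, chr2:34771840-34772089, plus strand: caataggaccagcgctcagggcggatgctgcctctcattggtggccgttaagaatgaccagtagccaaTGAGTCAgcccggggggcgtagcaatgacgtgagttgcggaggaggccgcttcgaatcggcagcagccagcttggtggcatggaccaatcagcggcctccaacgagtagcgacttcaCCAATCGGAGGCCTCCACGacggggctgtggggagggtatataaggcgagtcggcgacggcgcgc
Hspe1, chr1:55087898-55088147, plus strand: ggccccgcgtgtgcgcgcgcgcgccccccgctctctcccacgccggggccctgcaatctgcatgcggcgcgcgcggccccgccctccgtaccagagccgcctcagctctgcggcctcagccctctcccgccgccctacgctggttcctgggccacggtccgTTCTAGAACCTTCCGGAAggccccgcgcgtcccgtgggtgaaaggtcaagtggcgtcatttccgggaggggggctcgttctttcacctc

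The windows of Hspa1a and Hspa1b were equal at 247 of 250 positions (98.8%), with the differences C44T, T47C and T249G (Hspa1a base first, counted from 1 at the 5′ end of the window). Each held 1 heat shock element of 2 units, GAAGATTC, at −104 to −97 from the start, and neither held the AP-1 letters. The Hspa5 window held the ER stress element at −65 to −47 and the AP-1 letters TGAGTCA at −182 to −176, but no heat shock element. The Hspe1 window held 3 overlapping matches to the element of 2 units in 1 run between −89 and −72. Together they also match the form with 3 alternating units at 2 places. Hspd1 is the head-to-head neighbour of Hspe1, and 1 of its 2 RefSeq windows shares 215 bases with the Hspe1 window. Over 32851 windows of this length, the element of 2 units occurred in 12.8%, the form with 3 units in 0.466%, the ER stress element in 0.113% and the AP-1 letters in 6.75%. Windows were matched for 7 of the 10 members. Of the others among these, Hsph1 held 1 element of 2 units (TTCTCGAA) and Dnajb1 held none of these motifs. Hsp90aa1, Hsp90ab1 and Hspa8 had no entry.

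By GENCODE M21, Hspa1a (chr17:34969190-34972156, minus strand) and Hspa1b (chr17:34956436-34959238, minus strand) are neighbours on chromosome 17, and Hsp90ab1 (chr17:45567775-45573271, minus strand) lies on the same chromosome. Hspa8 is on chromosome 9 (chr9:40800984-40810087, plus strand), Hspa5 on chromosome 2 (chr2:34771970-34777547, plus strand), Dnajb1 on chromosome 8 (chr8:83608193-83612653, plus strand), Hsph1 on chromosome 5 (chr5:149614287-149636376, minus strand) and Hsp90aa1 on chromosome 12 (chr12:110690605-110702728, minus strand). Hspd1 (chr1:55077835-55088243, minus strand) and Hspe1 (chr1:55088132-55091307, plus strand) overlap at their starts. The assay reads the 3′ end, so the last 500 transcript bases were searched for runs of 60 bases found in other genes. None of these runs was shared for Hspa1a and Hspa1b, so that reads of this stretch tell the pair apart, nor for Hspa5, Hsph1 and Dnajb1. The share was 2.35% for Hsp90ab1, 23.0% for Hspe1, 26.6% for Hspd1, 38.6% for Hsp90aa1 and 58.3% for Hspa8, shared with other annotated genes such as Hspd1-ps3 and Hspe1-ps2. The levels of the last 4 are less certain for this reason. These are shares of runs and not of reads, so they do not give the size of an error in the levels.

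Cell types were set by markers, as parts of a range and not by clustering. A cell was a macrophage when C1qa, C1qb and C1qc made up at least 0.5% of its UMIs, a neutrophil when S100a8 and S100a9 made up at least 5%, a B cell with at least 4 UMIs of Cd79a and Cd79b, and a T cell with at least 2 UMIs of Cd3d, Cd3e and Cd3g. This gave 1442 macrophages (182, 511 and 749 in male mice 1, 2 and 3), 272 neutrophils, 161 B cells and 76 T cells. Only 85 macrophages were under 1%. No rule was met by 390 cells, and more than 1 by 327 cells, which stayed out of the comparisons. Of these, 283 met the neutrophil and T rules alone through Cd3d (4.81 UMIs per cell) with nearly no Cd3e (0.014) and with a high Ly6g (26.1), which goes against a T cell label. They were the deeper cells of the 560 that met the neutrophil rule (a median of 10205 UMIs in cells that met both rules, against 3659.5 in the others), with more Ly6g, Ltf and Camp. The neutrophil levels below thus describe the shallower cells, and levels with the deeper ones come from an alternative in which each cell took the first rule it met (556 neutrophils). Summed UMIs per mouse were 1646259 to 7504746 in macrophages, 281441 to 913929 in neutrophils, 161902 to 376454 in B cells and 61388 to 209592 in T cells. The C1q genes with Csf1r and Cx3cr1 summed to 16604 to 20207 counts per 1000000 UMIs (CPM) in macrophages and to at most 501 CPM elsewhere, a measure of stray RNA, although the rule itself holds C1q low in the other types. Xist was at 495 to 526 CPM in female and at 0.236 to 2.12 CPM in male mice, as labelled.

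Among the 4 named types, the stress-inducible pair was highest in macrophages. Hspa1a, the inducible cytosolic HSP70, was at 234, 286 and 114 CPM in the macrophages of male mice 1, 2 and 3 (211 ± 88.2 CPM, SD, n = 3). In neutrophils it was at 4.78, 10.7 and 3.28 CPM, in B cells at 11.8, 18.5 and 18.6 CPM, and in T cells at 30.3, 0 and 4.77 CPM. These low levels rest on 2 to 3 UMIs per mouse in neutrophils, 3 to 7 in B cells and 0 to 5 in T cells (0 of 61388 UMIs in male mouse 2, which allows up to 48.9 CPM). No macrophage value overlapped those of another type, and among the other types the order cannot be read at these counts. The log2 fold change of macrophages was 4.99 over neutrophils (SE 0.53, adjusted p = 1.23e-07, edgeR's quasi-likelihood test), 4.27 over B cells (SE 0.48, adjusted p = 3.09e-07) and 4.37 over T cells (SE 0.60, adjusted p = 7.29e-06). All 3 calls held in 12 of 12 alternatives. With the deeper neutrophils included, Hspa1a was at 3.32, 10.6 and 3.44 CPM there (log2 fold change of macrophages 4.86, adjusted p = 3.99e-09).

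Hspa1b, its near-identical paralog, followed at lower CPM. Macrophages had 62.0, 82.6 and 30.5 CPM, B cells 3.94, 24.7 and 18.6 CPM, and T cells 12.1, 48.9 and 4.77 CPM (1 to 7 UMIs per mouse in both lymphocyte types). Neutrophils had 0 of 1613700 UMIs, against 645 UMIs in macrophages, which puts the macrophage level (49.8 CPM pooled over mice) at least 26.8-fold higher, with 3 counts over the group as the floor (1.86 CPM). With the deeper neutrophils included, there were 5 UMIs of 4766962 (1.05 CPM), and the log2 fold change of macrophages was 5.04 (adjusted p = 6.99e-07). The macrophage and T cell ranges overlapped through the 3 UMIs of male mouse 2. By edgeR, macrophages were higher than neutrophils (adjusted p = 4.73e-05), than B cells by 2.50 on the log2 scale (SE 0.61, adjusted p = 0.00195) and than T cells by 2.47 (SE 0.79, adjusted p = 0.0174). Without male mouse 1 the last call was lost (2.31, adjusted p = 0.0906).

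Dnajb1, the J-domain partner that stimulates HSP70, did not share this pattern. Its level was 83.8, 116 and 77.8 CPM in macrophages, 81.3, 67.5 and 63.5 CPM in neutrophils, 118, 111 and 61.1 CPM in B cells, and 133, 130 and 76.3 CPM in T cells. The ranges of all 4 types overlapped, and no pair of types was called in the main fit. The log2 fold change of macrophages was 0.04 over neutrophils (SE 0.24), 0.61 over B cells (SE 0.26, adjusted p = 0.0514) and 0.24 over T cells (SE 0.30). The B cell value passed the threshold in 7 of 12 alternatives, among them the mouse as a block (0.57, adjusted p = 0.0364) and the fit without male mouse 1 (0.94, adjusted p = 0.023). Over these alternatives it ran from −0.0062 to 0.94, with 11 of 12 above 0. By mean CPM, macrophages were lower than B cells (92.5 against 96.8 CPM). The scaling of the fits on trimmed means (TMM) shifted this log2 ratio by 0.61. In the edgeR fits, neutrophils were above B cells when a cell took the first rule it met (0.73, adjusted p = 0.0233). The same held with marker thresholds multiplied by 2 (0.69, adjusted p = 0.04). By mean CPM in the main classes, neutrophils were instead lower than B cells (70.7 against 96.8 CPM). TMM shifted the log2 ratio of neutrophils to B cells by 0.99. Over the alternatives, the fitted value ran from −0.44 to 0.79.

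Hsph1, the HSP110 exchange factor, was low in macrophages and lower in neutrophils. It was at 15.8, 14.7 and 27.7 CPM in macrophages and at 2.39, 3.55 and 2.19 CPM in neutrophils (1 to 2 UMIs per mouse). B cells had 55.2, 43.2 and 53.1 CPM, and T cells 66.6, 32.6 and 114.5 CPM, all above every macrophage value. The 32.6 CPM of male mouse 2 came from 12 T cells with 61388 UMIs of all genes, so its distance from macrophages rests on very few counts. The log2 fold change of macrophages was 2.61 over neutrophils (SE 0.62, adjusted p = 0.0013) and −1.58 against T cells (SE 0.36, adjusted p = 0.00154). Against B cells it was −0.75 (SE 0.34, adjusted p = 0.0654), and −0.75 with adjusted p = 0.043 under the block. Without male mouse 3, the T cell call was lost (−1.24, adjusted p = 0.0571) and the B cell value passed (−1.04, adjusted p = 0.0477).

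**Figure D1:**
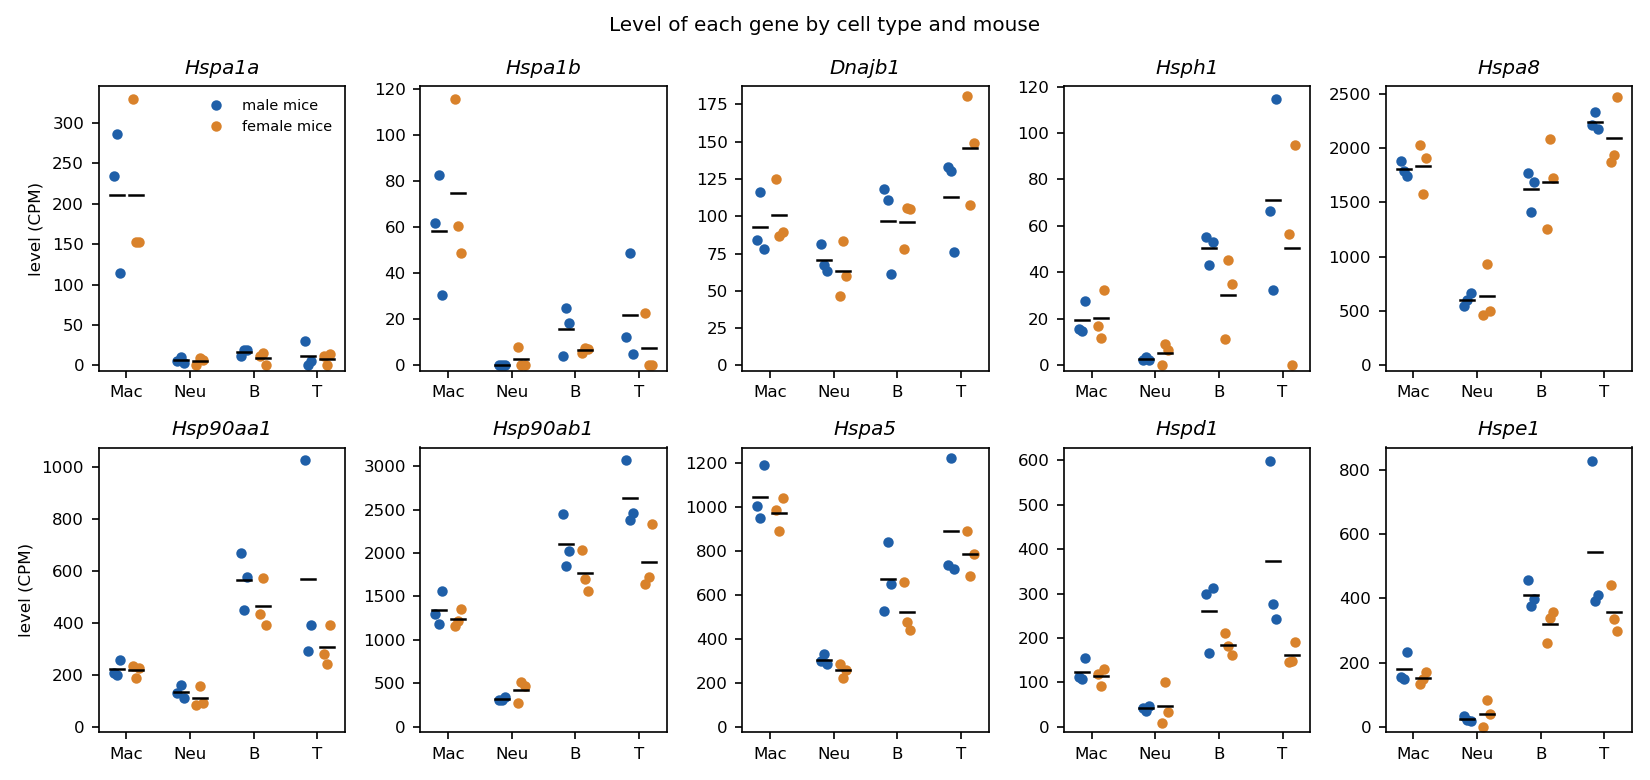
Level of each member (CPM, linear axis from 0) in macrophages (Mac), neutrophils (Neu), B cells and T cells, with 1 point per mouse (blue male, orange female) and a bar at the mean of 3 mice. Hspa1a lies at 114 to 286 CPM in the macrophages of male mice and at most at 30.3 CPM in their neutrophils, B cells and T cells. Hsp90ab1, Hspd1 and Hspe1 are higher in B and T cells than in macrophages in every mouse.

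The cytosolic housekeeping chaperones were lowest in neutrophils. Hspa8, the constitutive HSP70, was at 1885, 1789 and 1739 CPM in macrophages, 543, 604 and 665 CPM in neutrophils, 1766, 1408 and 1689 CPM in B cells, and 2215, 2329 and 2171 CPM in T cells. The neutrophil values lay below all others and the T cell values above all others. By edgeR, the log2 fold change of macrophages was 1.21 over neutrophils (SE 0.16, adjusted p = 2.01e-06), 0.74 over B cells (SE 0.16, adjusted p = 0.000445) and 0.14 against T cells (SE 0.16, adjusted p = 0.487). The fits scale on trimmed means (TMM), which shifted the log2 CPM ratio of macrophages by −0.38 against neutrophils, 0.61 against B cells and 0.46 against T cells. On library totals alone, an alternative added after these factors were seen, the B cell difference of Hspa8 was no longer called (0.13, adjusted p = 0.403).

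Hsp90ab1, the constitutive cytosolic HSP90, was at 1300, 1183 and 1565 CPM in macrophages and at 308, 306 and 339 CPM in neutrophils. B cells had 2444, 1847 and 2024 CPM and T cells 3074, 2378 and 2462 CPM, again above every macrophage value. The log2 fold change was 1.71 over neutrophils (SE 0.17, adjusted p = 6.44e-08), −0.05 against B cells (SE 0.16, adjusted p = 0.797) and −0.52 against T cells (SE 0.17, adjusted p = 0.0149). The B cell value became −0.66 on library totals (adjusted p = 0.00119). The T cell call was lost without any 1 mouse, at −0.35, −0.44 and −0.51 without male mice 1, 2 and 3 (adjusted p = 0.235, 0.155 and 0.0526). By edgeR it was also lost in thinned cells (−0.31, adjusted p = 0.101) and with no filter (−0.29, adjusted p = 0.412).

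Hsp90aa1, the more inducible HSP90, was at 207, 200 and 258 CPM in macrophages, 129, 160 and 111 CPM in neutrophils, 670, 451 and 576 CPM in B cells, and 1029, 293 and 391 CPM in T cells. Lymphocytes were higher than macrophages in every mouse, and the T cells of male mouse 1 stood far above the other T cells. The log2 fold change was 0.41 over neutrophils (SE 0.29, adjusted p = 0.231), −0.77 against B cells (SE 0.27, adjusted p = 0.02) and −0.98 against T cells (SE 0.28, adjusted p = 0.0088). On library totals the neutrophil value was called (0.80, adjusted p = 0.0282). Without male mouse 1, the calls against B cells (−0.55, adjusted p = 0.0573) and T cells (−0.20, adjusted p = 0.623) were lost, the former also without male mouse 3 (−0.80, adjusted p = 0.0504) and under DESeq2 (−0.72, adjusted p = 0.0632). In thinned cells neither was called (adjusted p = 0.0726 and 0.168).

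Hspa5, the HSP70 of the ER, was the other member that was higher in macrophages than in all 3 types. Macrophages had 1005, 950 and 1190 CPM, neutrophils 301, 330 and 286 CPM, B cells 528, 840 and 648 CPM, and T cells 738, 1222 and 720 CPM. The macrophage values stood above those of neutrophils and B cells, while the T cells of male mouse 2, 12 cells, were above all macrophages. The log2 fold change was 1.42 over neutrophils (SE 0.20, adjusted p = 4.16e-06), 1.24 over B cells (SE 0.20, adjusted p = 2.2e-05) and 0.73 over T cells (SE 0.20, adjusted p = 0.0059). The last was higher in 2 of 3 mice by CPM and was not called on library totals (0.27, adjusted p = 0.272).

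The mitochondrial chaperonin pair went the other way in lymphocytes. Hspd1 (HSP60, the chamber) was at 112, 107 and 154 CPM in macrophages, 43.0, 35.5 and 46.0 CPM in neutrophils, 299.6, 167 and 313 CPM in B cells, and 599, 277 and 243 CPM in T cells. Hspe1 (HSP10, its lid) was at 156, 150.1 and 232 CPM in macrophages, 33.5, 21.3 and 18.6 CPM in neutrophils, 457, 377 and 398 CPM in B cells, and 829, 391 and 410 CPM in T cells. Both were lowest in neutrophils and higher in B and T cells than in macrophages in each mouse. By edgeR, macrophages were higher than neutrophils by 1.16 for Hspd1 (SE 0.31, adjusted p = 0.00299) and 2.56 for Hspe1 (SE 0.31, adjusted p = 8.78e-07). They were lower than T cells, with log2 fold changes of −1.16 for Hspd1 (SE 0.27, adjusted p = 0.00168) and −1.18 for Hspe1 (SE 0.24, adjusted p = 0.000437). Against B cells, Hspe1 was lower (−0.61, SE 0.23, adjusted p = 0.0286) and Hspd1 was not called (−0.52, SE 0.26, adjusted p = 0.0921) except on library totals (−1.12, adjusted p = 0.00122). The T cell calls rested on male mouse 1 (−0.51 and −0.63 without it, adjusted p = 0.224 and 0.0625). That of Hspd1 was also lost in thinned cells (−0.47, adjusted p = 0.252). The Hspe1 call against B cells was lost without male mouse 1 or 2 (−0.39 and −0.49, adjusted p = 0.165 and 0.153) and under DESeq2 (−0.56, adjusted p = 0.0744). It was also lost with no filter (−0.43, adjusted p = 0.116), in thinned cells (−0.53, adjusted p = 0.0583) and with marker thresholds multiplied by 2 (−0.51, adjusted p = 0.0698).

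**Figure D2:**
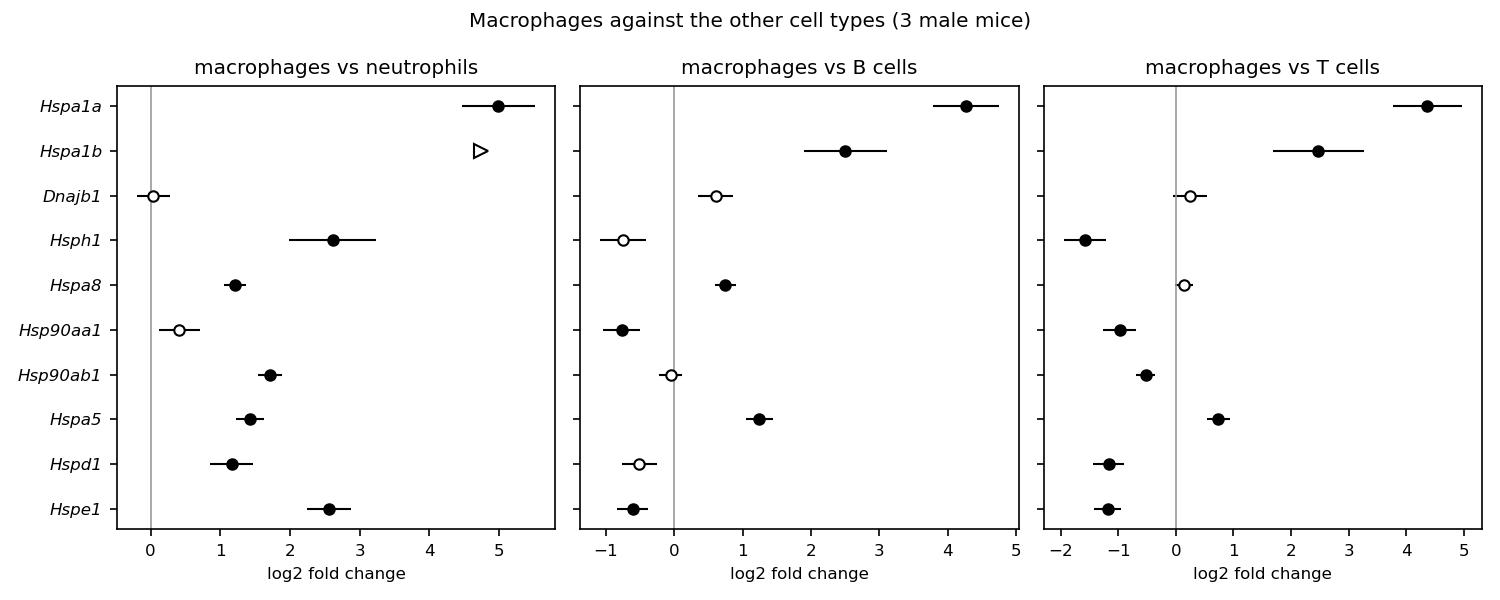
Log2 fold change of macrophages over neutrophils, B cells and T cells for each member in the 3 male mice, from edgeR, with bars of 1 SE. Filled points passed an adjusted p of 0.05, open points did not, and the open triangle is the lower bound of 4.74 for Hspa1b, which had 0 UMIs in neutrophils. Hspa1a, Hspa1b, Hspa5, Hspa8 and Dnajb1 lie right of 0 in all 3 panels, with no filled point for Dnajb1 and none for Hspa8 against T cells. Hsp90aa1, Hsp90ab1, Hsph1, Hspd1 and Hspe1 lie left of 0 against B and T cells, with Hsp90ab1, Hsph1 and Hspd1 open against B cells.

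By counts, 8 of 10 members were higher in macrophages than in neutrophils and 0 were lower, where 32.3% of the 5513 genes tested were higher and 27.9% lower (1779 and 1536 genes, or 2505 and 1100 on library totals). The members' median log2 fold change was 1.57, against 0.13 over all genes tested. Against B cells, 4 members were higher and 2 lower, where 30.5% of genes were higher and 27.5% lower (1680 and 1515, or 1119 and 2722 on library totals), with medians of 0.28 and 0. Against T cells, 3 were higher and 5 lower, where 24.3% of genes were higher and 20.6% lower (1339 and 1135, or 940 and 1972 on library totals), with medians of −0.19 and −0.03. Library totals moved the median of all genes to 0.53, −0.60 and −0.48 in the 3 comparisons. The 3 comparisons share the macrophage samples.

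Between the other types, neutrophils were below B cells for 7 members and above for 0, where 55% of genes were called (1481 higher and 1553 lower, or 812 and 3177 on library totals). They were below T cells for 7 members, where 46.5% of genes were called (1301 higher and 1260 lower, or 703 and 2612 on library totals). TMM shifted the log2 CPM ratio of neutrophils by 0.99 against B cells and 0.84 against T cells. On library totals, 8 members were called against B cells and 8 against T cells. There Hspa5 was below B cells (−1.17, adjusted p = 7.16e-05, edgeR), at a mean of 306 against 672 CPM. In the main fit Hspa5 was not called against B cells (−0.18). The log2 differences of neutrophils from B cells were largest in size, among values with UMIs in both types, for Hsph1 (−3.36, adjusted p = 0.000268) and Hspe1 (−3.17, adjusted p = 1.13e-07). Of the B cell calls, Hspa8 (−0.47, adjusted p = 0.0185) was lost without male mouse 1 (−0.24, adjusted p = 0.372) or 2 (−0.45, adjusted p = 0.141), and that of Hspa1b (adjusted p = 0.0471), with 0 UMIs in neutrophils, without any 1 mouse and with the deeper neutrophils included (−2.48, adjusted p = 0.068). Of the T cell calls, Hsp90aa1 was lost without male mouse 1 (−0.61, adjusted p = 0.111) and Hspa5 without male mouse 2 (−0.40, adjusted p = 0.205) or 3 (−0.66, adjusted p = 0.0795), while Hspa1b was called under the block (adjusted p = 0.0118). B cells and T cells differed for 1 member, Hspa8 (−0.60, SE 0.16, adjusted p = 0.0107), where 20% of genes were called. This call was lost without male mouse 2 (−0.49, adjusted p = 0.223) or 3 (−0.56, adjusted p = 0.076), and Hspd1 was called without male mouse 3 (−1.03, adjusted p = 0.0464). With the block, Hsp90ab1 was also lower in B cells (−0.46, adjusted p = 0.0461).

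Other genes of the same systems were read from lists, whose counts stand against the shares of all genes given above. In ER chaperones and the unfolded protein response, 15 of 22 tested genes were higher in macrophages than in neutrophils and 3 lower, 14 and 3 against B cells, and 12 and 0 against T cells, in the direction of Hspa5. The higher ones were 68.2%, 63.6% and 54.5% of the list, where 32.3%, 30.5% and 24.3% of all genes were higher. Among them, Pdia4, a disulfide isomerase, was higher than in neutrophils by 2.43 on the log2 scale (SE 0.34, adjusted p = 4.04e-06), and Calr, the lectin chaperone calreticulin, by 2.33 (SE 0.24, adjusted p = 7.94e-08). P4hb, another disulfide isomerase, was higher than in B cells by 2.02 (SE 0.23) and than in T cells by 1.82 (SE 0.28), and Sdf2l1, a partner of Hspa5, than in T cells by 1.73 (SE 0.35). Syvn1, a ubiquitin ligase of ER degradation, was lower than in B cells (6.87 against 99.5 CPM, −3.09, SE 0.33, adjusted p = 1.68e-07).

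The TRiC and prefoldin list, which folds actin and tubulin among others, split by type. Of 13 genes, 9 were higher in macrophages than in neutrophils and 0 lower, 1 and 8 against B cells, and 0 and 5 against T cells. These were 69.2% higher against neutrophils and 61.5% and 38.5% lower against B and T cells, where 32.3% of all genes were higher and 27.5% and 20.6% lower. Cct3, a TRiC subunit, was higher than in neutrophils by 1.76 (SE 0.29, adjusted p = 2.8e-05), and Cct2 was lower than in B cells by −1.17 (SE 0.20, adjusted p = 6.25e-05). In the list of 23 tested cytosolic co-chaperones, 7 were higher than in neutrophils and 2 lower, 1 and 5 against B cells, and 1 and 5 against T cells. The 30.4% higher against neutrophils and the 21.7% lower against B and T cells were near the shares of all genes (32.3%, 27.5% and 20.6%). In the other directions the list was below them. It had 8.7% lower against neutrophils, where 27.9% of all genes were lower. Against B and T cells 4.3% were higher, where 30.5% and 24.3% of all genes were. Dnajc7, a J-domain protein that binds HSP70 and HSP90, stood at 70.8 CPM in macrophages and 890.3 CPM in B cells (−3.03, SE 0.21, adjusted p = 3.27e-10). Of 6 mitochondrial chaperones and proteases, 3 were higher than in neutrophils and 1 lower. Against B cells and against T cells, 2 were lower and 0 higher. The 33.3% lower there stood against 27.5% and 20.6% of all genes, and the 3 higher than in neutrophils against 32.3%. With 6 genes, such counts do not set the list apart from all genes. Hspa9, the mitochondrial HSP70, was higher than in neutrophils by 2.63 (SE 0.42, adjusted p = 2e-05). Of 2 tested genes of the heat shock factor list, 0 were called against neutrophils and 1 was higher against B cells and against T cells.

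Fos and Jun were themselves high in macrophages. Fos was at 2386, 4149 and 2535 CPM and Jun at 1067, 1944 and 932 CPM in macrophages of the 3 male mice, and the log2 fold change over the other types was between 2.47 and 5.02 for Fos and between 2.32 and 3.24 for Jun. All 15 tested immediate early genes were higher than in B cells and than in T cells, and 13 than in neutrophils.

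Within macrophages, the cells of each mouse were ordered by the share of Fos and Jun in their UMIs and cut into 3 equal parts, called Fos/Jun-low, -middle and -high here (60, 170 and 249 cells in the low and in the high part of male mice 1, 2 and 3). The parts are ranges of 1 continuous measure: the low part ended at 0.0949% to 0.207% of UMIs and the high part began at 0.284% to 0.664%. Fos was at 397 to 689 CPM in the low and at 6086 to 9688 CPM in the high part, which is how the parts were made and not a result. Fos/Jun-high against Fos/Jun-low cells were tested over mice.

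Hspa1a and Hspa1b rose with Fos and Jun. Hspa1a was at 40.7, 65.2 and 37.7 CPM in the low part and at 591, 663 and 254 CPM in the high part, a log2 fold change of 3.33 (SE 0.30, adjusted p = 1e-06, edgeR). Hspa1b was at 21.3, 12.9 and 9.90 CPM in the low part and at 128, 209 and 77.7 CPM in the high part, a log2 fold change of 3.38 (SE 0.35, adjusted p = 6.62e-06). The parts did not overlap for either gene. Over 5 parts in place of 3, mean Hspa1a was 48.9, 57.7, 115, 242 and 709 CPM from the lowest to the highest Fos and Jun share, and mean Hspa1b was 13.1, 16.2, 28.1, 59.97 and 208 CPM, so that most of the rise was in the upper parts. In the lowest part, Hspa1a still stood above its level in neutrophils and B cells (37.5 to 57.3 CPM by mouse, against at most 18.6 CPM).

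Dnajb1 rose less. It was at 40.7, 67.4 and 73.1 CPM in the low and at 128, 192 and 91.9 CPM in the high part (log2 fold change 1.03, SE 0.23, adjusted p = 0.0153). The call was lost without male mouse 1 (0.91, adjusted p = 0.117) and without male mouse 2 (0.67, adjusted p = 0.191), and with each cell thinned to 2000 UMIs (0.95, adjusted p = 0.0612). Its 5-part means were 56.1, 67.5, 90.7, 122 and 136 CPM.

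The other 7 members were not called. Hspa5 was at 843, 877 and 1099 CPM in the low and 1230, 1079 and 1282 CPM in the high part (0.29, SE 0.12, adjusted p = 0.198). Hspa8 was at 1720, 1642 and 1597 CPM in the low and 2066, 2013 and 1909 CPM in the high part (0.21, SE 0.11, adjusted p = 0.345). Both were higher in 3 of 3 mice, with Hspa8 not overlapping. Hspd1 was lower in 3 of 3 mice (127.5, 126 and 164 CPM in the low, 103, 91.9 and 142.5 CPM in the high part, −0.35, SE 0.16, adjusted p = 0.269). Hsp90ab1 (−0.17, SE 0.14), Hspe1 (−0.20, SE 0.17), Hsph1 (−0.16, SE 0.30) and Hsp90aa1 (−0.08, SE 0.15) lay between −0.20 and −0.08. Of these, Hspe1 was also lower in 3 of 3 mice. With the mouse as a block, which the shared animals warrant, 5 members were called, Hspa5 (0.29, adjusted p = 0.0313) and Hspd1 (−0.35, adjusted p = 0.0431) in addition. More of all genes were called under the block too, 417 higher and 466 lower of 7323. By the fit without block 3 members were higher and 0 lower, where 2.31% of the 7323 genes tested were higher and 1.94% lower (169 and 142, or 188 and 77 on library totals). The members' median log2 fold change was 0.07, against 0.02 over all genes.

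**Figure D3:**
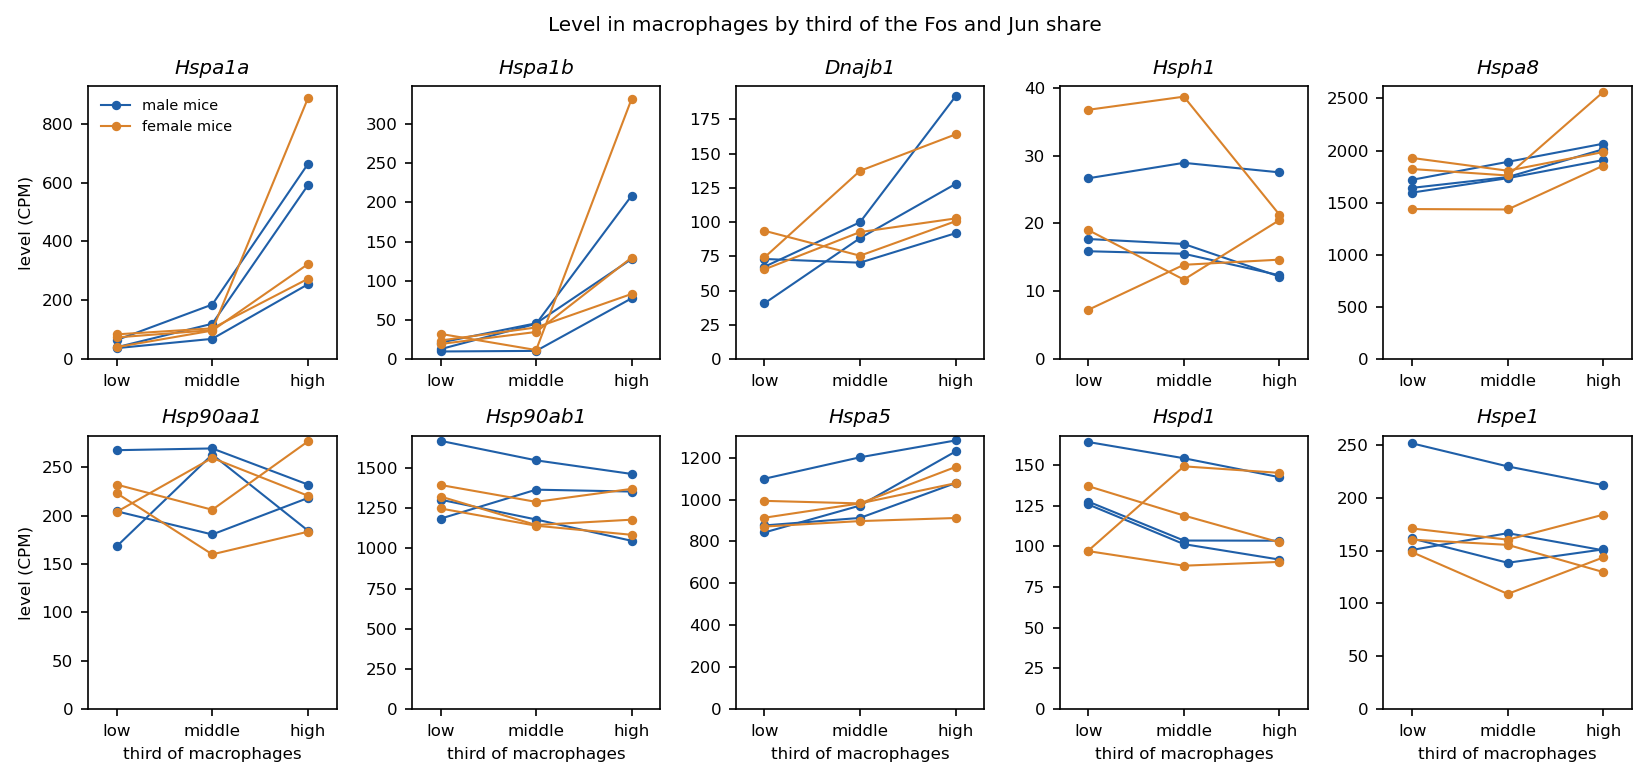
Level of each member (CPM, linear axis from 0) in macrophages of the low, middle and high part of the Fos and Jun share, with 1 line per mouse (blue male, orange female). Hspa1a goes from 37.7 to 65.2 CPM in the low to 254 to 663 CPM in the high part of male mice and Hspa1b with it. The high part lies above the low part in 2 male and 2 female mice for Hsp90aa1. It does so in 1 male and 0 female mice for Hsp90ab1, and in 0 male and 1 female mice for Hspe1.

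Of the lists, immediate early genes were higher in the high part for 15 of 16 genes, Fos and Jun included, which set the parts. Of 24 ER genes 2 were higher, Ddit3 (CHOP, a stress transcription factor, 1.202, SE 0.21, adjusted p = 0.00162) and Dnajb9 (an ER J-domain protein, 0.60, SE 0.16, adjusted p = 0.0361). None of the 28 cytosolic co-chaperones, 13 TRiC and prefoldin genes, 10 mitochondrial genes and 3 genes of the heat shock factor list was called by edgeR. All these list calls are from the fit without block. With the mouse as a block, 417 of all genes were higher and 466 lower, and calls by list under it are not given here. The 2 ER genes were 8.3% of their list, where 2.31% of all genes tested were higher and 1.94% lower. At these shares few or no calls fall in lists of this size, so the lists without a call are not set apart from all genes.

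Other measures moved with the parts. The share of macrophages with an Fcrls UMI and no Ccr2 UMI was 23.5% to 33.3% in the low and 48.3% to 72.4% in the high part, and that with Ccr2 alone 11.7% to 18.2% and 1.76% to 10.0%. The monocyte list (Ly6c2, Plac8, Chil3, Ccr2) summed to 316 to 413 CPM in the low and 123 to 227 CPM in the high part. Median UMIs per cell were 7871.5 to 10301 and 6869.5 to 8696, and median mitochondrial shares 1.90% to 2.08% and 1.74% to 1.76%. Neutrophil, B and T cell lists overlapped between the parts, while the erythroid list was at 3.05 to 5.31 CPM in the low and 0 to 1.78 CPM in the high part. The part of these measures in the rise was not tested beyond the values that follow. With cells thinned to 2000 UMIs, the log2 fold change was 3.04 for Hspa1a and 3.02 for Hspa1b, and within macrophages with Fcrls alone it was 2.94 and 2.95 (adjusted p = 0.00367 and 0.0125). Over 15 alternatives, Hspa1a kept a log2 fold change of 2.44 to 3.42 and its call, as did Hspa1b in the 14 that tested it (2.52 to 3.69).

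In female mice, whose cells are in the unfiltered matrix alone, the split was repeated as an alternative chosen after the male mice were seen. Hspa1a was at 74.2, 41.3 and 84.5 CPM in the low and at 886, 323 and 273 CPM in the high part (log2 fold change 2.86, SE 0.37, adjusted p = 6.57e-05). Hspa1b was at 32.3, 19.4 and 23.9 CPM in the low and at 332, 129.6 and 83.2 CPM in the high part (2.82, SE 0.44, adjusted p = 0.000502). Neither gene's parts overlapped. Dnajb1 was higher in 3 of 3 mice but not called (0.64, SE 0.23, adjusted p = 0.153). By edgeR, 2 members were higher and 0 lower, where 1.76% of the 4818 genes tested were higher and 1.08% lower.

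The relation was then set against the main division of macrophages. Macrophages with Fcrls and no Ccr2 UMI (77, 260 and 318 cells) were compared with those with Ccr2 and no Fcrls UMI (24, 47 and 83 cells), a marker split of resident and monocyte-related cells. Fos (1.16, SE 0.19, adjusted p = 0.000589) and Jun (1.19, SE 0.23, adjusted p = 0.00245) were higher in the former, but Hspa1a was not: it was at 219, 297 and 98.6 CPM with Fcrls and at 333, 277 and 124 CPM with Ccr2 (−0.25, SE 0.36, adjusted p = 0.789). Of the members, 1 was called, Hsp90ab1, at 1184, 1100 and 1442 CPM with Fcrls and 1359, 1528 and 1710 CPM with Ccr2 (−0.42, SE 0.12, adjusted p = 0.0351), where 9.46% of the 5879 genes tested were called. It was not called without any 1 mouse (−0.34 to −0.47), in thinned cells (−0.37, adjusted p = 0.123) or on library totals (−0.30, adjusted p = 0.154, with 333 genes higher and 210 lower in place of 245 and 311), and under the block Hspe1 was called as well (−0.44, adjusted p = 0.0274). Whether the relation to Fos and Jun differed between these classes was tested by an interaction term: 0 of 9 members tested were called by edgeR or DESeq2, 0 of them at an unadjusted p under 0.05, where 0% of 4286 genes were called (149 at an unadjusted p under 0.05 by edgeR, 76 by DESeq2). The interaction was −0.32 for Hspa1a (SE 0.75) and 1.51 for Hspa1b (SE 1.06), so that a difference of about a log2 unit could not be detected.

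Cell by cell, Hspa1a had the highest ratio of variance to mean of the members in macrophages. After thinning to 2000 UMIs (1412 of 1442 macrophages, 30 shallower cells left out), 18.8% ± 5.86 (SD, n = 3 mice) of macrophages had an Hspa1a UMI (36.0% unthinned, at a median of 8581.5 UMIs). The same share was 1.89% in thinned neutrophils, 3.94% in B cells and 1.33% in T cells (median depths unthinned 3635.5, 3410 and 4757.5 UMIs). In unthinned counts, the 10% of macrophages with the most Hspa1a UMIs held 73.9% to 75.8% of them by mouse. The same share was 23.6% to 25.4% for Hspa8 and 23.4% to 25.9% for Hsp90ab1. It was larger for the sparser Hspa1b (mean 93.4%) and Hsph1 (mean 81.3%), whose UMIs lay in few cells. Differences in depth between cells are part of these shares. After thinning, the ratio of variance to mean was 4.63 for Hspa1a (3.74 to 5.18) and 2.56 for Hspa1b (1.81 to 2.96). This ratio is 1 for chance sampling alone, and it was between 0.98 and 1.86 for the other 8. Hspa8 (1.86), Hspa5 (1.58), Dnajb1 (1.51) and Hsp90ab1 (1.42) were in between, while Hsph1, Hspd1, Hspe1 and Hsp90aa1 (0.98 to 1.08) were near 1. Low counts pull this ratio toward 1, so for these sparser genes a value near 1 does not show an even level from cell to cell. A thinned UMI was found in 93.2% of macrophages for Hspa8, 89.6% for Hsp90ab1, 81.1% for Hspa5, 34.7% for Hsp90aa1, 27.2% for Hspe1, 20.02% for Hspd1, 14.6% for Dnajb1, 6.87% for Hspa1b and 3.59% for Hsph1.

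**Figure D4:**
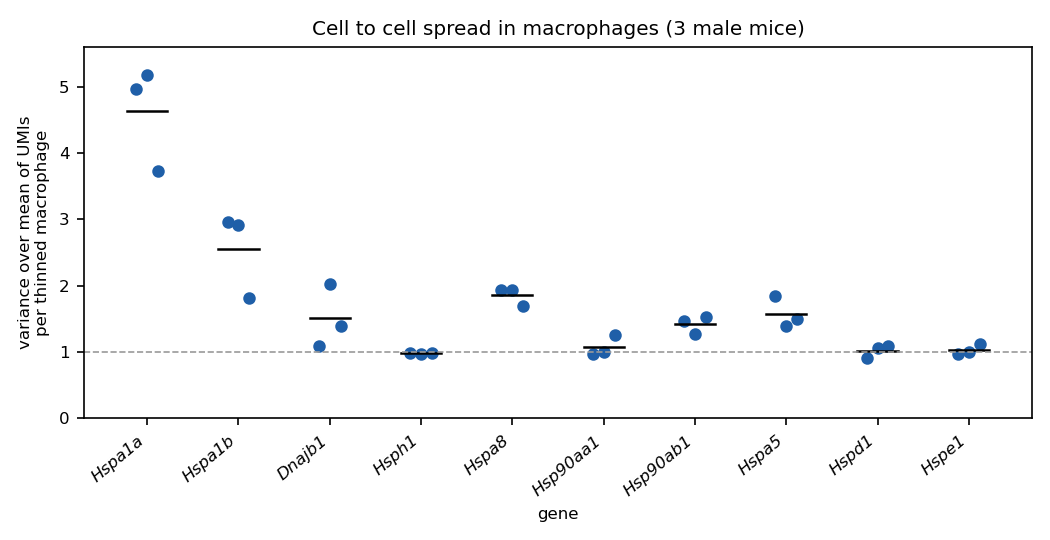
Ratio of variance to mean of UMIs per macrophage after thinning to 2000 UMIs, for each member, with 1 point per male mouse and a bar at the mean of 3. The dashed line at 1 is the value of chance sampling, and Hspa1a (mean 4.63) and Hspa1b (mean 2.56) stand above the other members.

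Spearman correlations per cell describe the same contrast and are given without a test, since the cells share 1 library and depth was equalised by thinning. Over 1412 macrophages, the mean of the 3 mice was 0.41 for Hspa1a with Hspa1b (0.33 to 0.46), 0.32 for Hspa1a with Jun (0.26 to 0.37) and 0.29 with Fos (0.22 to 0.38). For Hspa1b it was 0.23 with Jun and 0.17 with Fos, and Fos with Jun reached 0.63. Hspa8 and Hspa5 had 0.12 each with Fos, Dnajb1 0.07, and Hsp90ab1 −0.08 with Jun. All other pairs of members lay between −0.04 and 0.10, which in counts this sparse is no relation to build on. Among 1050 genes with a UMI in at least 20% of thinned macrophages, the genes most like Hspa1a were Jun, Fos, Ier5 (0.23), Zfp36l2 (0.19) and Klf2 (0.19). For Hspa5 they were Ccl12 (0.16), Sdf2l1 (0.15), Ccl2 (0.14), H3f3b (0.14) and Ccl7 (0.13), for Hsp90aa1 Psma3 (0.13), Son, Ccnd1, Cox17 and Hnrnpa0 (0.09 to 0.10), and for Hspd1 Rps19 (0.11), Ccnd1, Eif4g2, Actb and Gapdh (0.09 to 0.10).

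**Figure D5:**
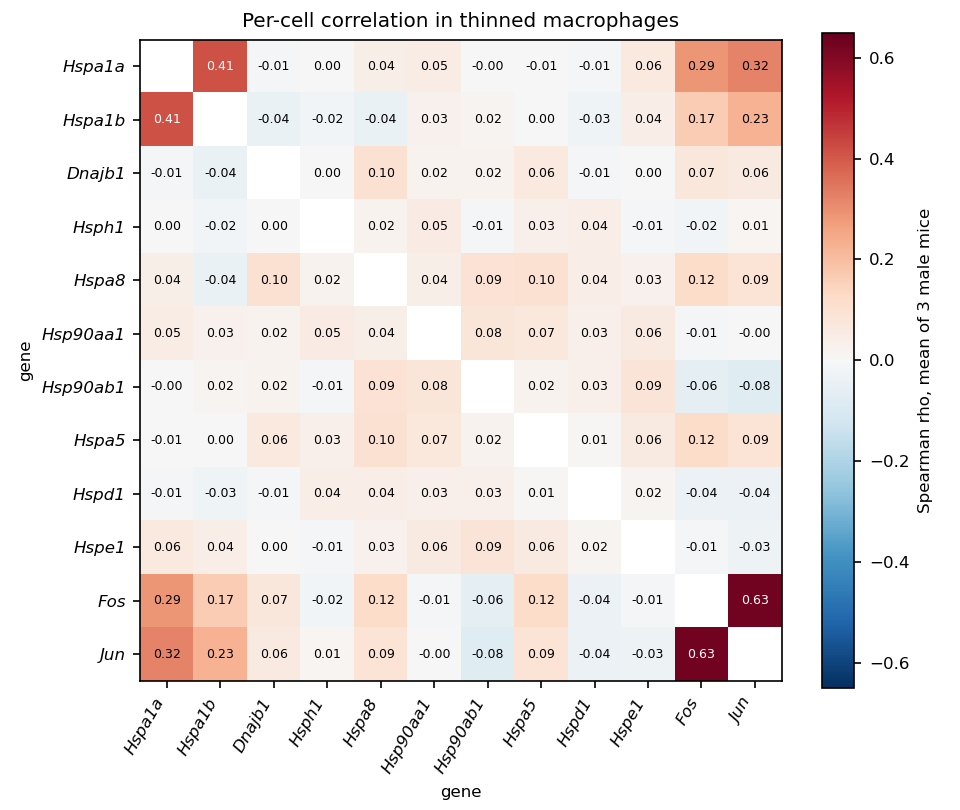
Spearman correlation per cell between the members, Fos and Jun in macrophages thinned to 2000 UMIs, as the mean of 3 male mice, with the value in each field and colour from blue (negative) to red (positive). The pair Hspa1a and Hspa1b (0.41) and its fields with Fos and Jun (0.17 to 0.32) are the fields above 0.12 that hold a member.

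Hspa1a, Hspa1b and Hsph1 varied most between mice. Over the macrophages of all 6 mice, Hspa1a ran from 114 to 329 CPM (median 193) and Hspa1b from 30.5 to 116 CPM (median 61.3), coefficients of variation of 40.4% and 44.2%. Hsph1 had 41.1%, on 15 to 208 UMIs per mouse. Hspe1, Dnajb1 and Hspd1 had 21.3%, 19.8% and 18.0%, and Hsp90aa1, Hsp90ab1, Hspa5 and Hspa8 had 11.7%, 11.6%, 10.0% and 8.56%. The highest mouse was at 2.89 times the lowest for Hspa1a and at 1.29 times for Hspa8.

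No member was called between the sexes. Female macrophages had 329, 152.5 and 152 CPM of Hspa1a, against 234, 286 and 114 CPM in male mice (log2 fold change 0.04, SE 0.32, adjusted p = 1). Of the 10 members 0 were called by edgeR or by DESeq2, 0 at an unadjusted p under 0.05, where 0.0867% of the 8070 genes tested were called, 7 genes. The SE of 0.32 leaves room for a moderate sex difference in Hspa1a.

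Between cell types, female mice gave Hspa1a the same place. Hspa1a was higher in macrophages by 4.99 over neutrophils (SE 0.79, adjusted p = 1.08e-05), 5.05 over B cells (SE 0.60, adjusted p = 1.68e-07) and 5.00 over T cells (SE 0.78, adjusted p = 1.26e-05), with 0 to 1 UMIs per mouse in neutrophils. Hspa1a also had 0 UMIs in the B cells of female mouse 3 and in the T cells of female mouse 2. These allow up to 21.0 and 40.4 CPM, so the size of all 3 changes is uncertain. Hspa5 was higher by 1.59, 1.39 and 0.70, the last lost without female mouse 3 (0.67, adjusted p = 0.0961) and on library totals (0.27, adjusted p = 0.272). Hspa1b and Hsph1 did not pass the filter in these shallower sums. By edgeR, 7 of the 8 members tested were called against neutrophils, all higher, where 55.6% of 2818 genes were called (896 higher, 670 lower). Against B cells 4 were called (3 higher, 1 lower), where 56.9% of genes were (829 higher, 775 lower). Against T cells 3 were called (2 higher, 1 lower), where 42.7% of genes were (687 higher, 517 lower). Against neutrophils, Hspd1 and Hsp90aa1 were lost without female mouse 1 (0.46 and 0.41, adjusted p = 0.404 and 0.343) or 3 (0.84 and 0.63, adjusted p = 0.199 and 0.159). Hspa8, higher than in B cells (0.63, SE 0.23, adjusted p = 0.0202), was lost without female mouse 1 (0.46, adjusted p = 0.0667) or 3 (0.65, adjusted p = 0.108) and on library totals (0.07, adjusted p = 0.81). The lower ones were Hsp90aa1 against B cells (−0.58, SE 0.19, adjusted p = 0.0134), lost without female mouse 2 (−0.26, adjusted p = 0.342), and Hspe1 against T cells (−0.87, SE 0.27, adjusted p = 0.0129), lost without female mouse 1 (−0.53, adjusted p = 0.132).

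Cells outside the 4 types carried the inducible genes too. The 390 cells that met no rule had 247, 82.5 and 33.1 CPM of Hspa1a in male mice 1, 2 and 3, and the 327 cells that met more than 1 rule had 2.49, 57.6 and 22.9 CPM. Hspa1b was at 14.5 to 62.0 CPM by mouse in the cells that met no rule, which overlapped its 30.5 to 82.6 CPM in macrophages. It was at 0 to 13.3 CPM in those that met more than 1 rule. Macrophages are therefore the highest of the 4 named types, not the only cells with these transcripts. The 40 min digestion was shared by all cells, and its part in the levels of Hspa1a, Hspa1b, Fos and Jun was not tested.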

How the data were processed

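CD45+ DAPI− cells of mouse DRGs were profiled by 10x 3′ v3 single-cell RNA-seq with hashtags. Per the file headers and the labels, the authors aligned to mm10 with Cell Ranger (3.1.0 in the matrix header) and filtered in Seurat. The deposited values are raw UMI counts per gene and cell, not normalized, with a deposited count matrix of hashtags. Hashtags were assigned anew with HTODemux (Seurat 5.3.0), 1 mouse each, and cells with over 200 and under 5000 genes and under 5% mitochondrial UMIs were kept, as in the study. The filtered and unfiltered matrices differed at 0 entries for shared cells. Scrublet (scanpy 1.11.5) marked 13 cells (0.487%), too few to count as a working doublet call. Doublets were otherwise removed only through cells with more than 1 hashtag.

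UMIs were summed per mouse and class, since cells are not replicates, and tested with edgeR 4.0.16 (quasi-likelihood, TMM, filterByExpr, R 4.3.3) and Benjamini-Hochberg adjustment over all genes tested, at an adjusted p of 0.05. The p-values measure the spread between 3 mice of 1 library. The classes of 1 mouse come from the same animal, so the mouse was also fitted as a block: deviations of classes of the same mouse correlated at 0.13 to 0.43 for the Fos and Jun parts and at 0.11 to 0.34 for the Fcrls and Ccr2 classes, and on average at 0.02 to 0.07 for cell types. Alternatives were DESeq2 1.42.0, its size factors in edgeR, no filter, each mouse left out, doublets left out, cells thinned to 2000 UMIs, marker thresholds multiplied by 2, and, chosen after seeing the data, the first rule met, female Fos and Jun parts, and library totals. The depth of each sum is given in the results, and intervals and floors (3 counts) cover counting error only.

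The members and gene lists were chosen with earlier results of these data known. The genes named were the members, Fos and Jun, and, per list and comparison, some of up to 3 called genes with the largest change that moved the same way in each mouse. Per-cell likeness was ranked for Hspa1a, Hsp90aa1, Hspa5 and Hspd1. The fits across genes were tested on simulated data. Further alternatives for the Fos and Jun parts were a cut in 2 parts, Fos or Jun alone, and Fcrls or Ccr2 macrophages alone. 1 further gene list is not reported here.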

Additional observations from a re-analysis of the deposited data

How the results depend on the processing

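No result turned its direction among called values, and Hspa1a kept its calls against all 3 types and along Fos and Jun under every alternative run. Over all members, comparisons and alternatives, 1197 values kept their side of the threshold, 32 passed it only under the alternative and 64 were lost under it. Counts of members called that moved by over 1.5 times were as follows. With cells thinned to 2000 UMIs, 3 were called against B cells (6 in the main analysis), 3 against T cells (8) and 0 between Fcrls and Ccr2 macrophages (1). Of the 2293 genes tested there, 727 were higher and 605 lower against B cells, and 585 and 426 against T cells. Between Fcrls and Ccr2 macrophages, 78 were higher and 77 lower of 2377. In these thinned fits, 8 of the 10 members passed the filter for cell types, so part of the drop against B and T cells is members not tested (Hspa1b and Hsph1). With the replicate block, 5 were called along Fos and Jun (3), 2 between Fcrls and Ccr2 macrophages and 2 between B and T cells (1). Under the block, 302 genes were higher and 378 lower of 5879 between Fcrls and Ccr2 macrophages. Between B and T cells they were 469 and 642 of 5513. DESeq2 gave 2 between B and T cells (456 genes higher and 695 lower of 5513) and no filter gave 0 (585 and 762 of 16045). Library totals gave 0 between Fcrls and Ccr2 macrophages (333 genes higher and 210 lower of 5879). The Fos and Jun split within Ccr2 macrophages, cut in 2 parts, gave 1 (11 genes higher and 1 lower of 2055). Leaving out a mouse gave 3 to 7 against T cells, 0 to 1 between B and T cells and 0 to 0 between Fcrls and Ccr2 macrophages. The 3 against T cells were without male mouse 1, where 1095 genes were higher and 695 lower of 5744. The causes were not tested. With the block the genes called along Fos and Jun were 417 higher and 466 lower, in place of 169 and 142. Depth limits T cells most, with 61388 UMIs in male mouse 2, and the low counts of Hspa1a and Hspa1b outside macrophages.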
